A study of Mus musculus with 2 samples.

Results

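Cholesterol and fatty acid synthesis genes are described here in mouse tumors treated with MSA-2, a small-molecule agonist of the innate immune receptor STING, and in control tumors. The genes were chosen by symbol from a written list, and 28 of the 32285 gene features in the files carry its symbols: 18 enzymes of cholesterol synthesis, 4 regulators or carriers (Srebf1, Srebf2, Insig1 and Stard4) and 6 enzymes of fatty acid synthesis. Each symbol matched 1 feature, and the list was chosen with earlier results of these data known. The study grew MC38, a mouse colon carcinoma line, under the skin of mice and counted single-cell 3′ RNA from the tumors. The Untreated library is labelled a negative control and, by the design text, received vehicle, saline with 10% DMSO, while the MSA-2 library received the agonist. Both agents were injected into the tumor 3 times, every 3 days, and material from 3 mice or samples was pooled into each library. The paper's methods name saline alone for the control. The labels give no strain or age, and the methods describe MC38 tumors in C57BL/6 mice, aged 6 to 8 weeks, of both sexes. With 1 library a group there is no spread between tumors, and treatment and library cannot be told apart.

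The Untreated library held 14386 barcodes with 198135335 UMIs (unique molecular identifiers, each counting 1 captured RNA molecule), and the MSA-2 library 14617 barcodes with 204387165 UMIs. After barcodes with few genes, much mitochondrial RNA or a doublet call were left out, 13316 and 13403 cells remained, with medians of 8280 and 9295 UMIs and 2778 and 3040 genes. The libraries shared 53 barcodes, 39 of them kept in both. Levels are counts per 1e6 UMIs of the same cells (CPM), changes are log2 ratios of MSA-2 over Untreated, and the 95% intervals cover counting error only. A gene is said to rise or fall where its log2 ratio passes 0.58, the fold limit of the study's methods, and the libraries together hold 50 or more of its UMIs. Where 2 values stand side by side without labels, Untreated comes first.

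Cells make cholesterol from acetyl-CoA through mevalonate, farnesyl pyrophosphate, squalene and lanosterol. When sterols run low in the endoplasmic reticulum, the escort protein SCAP carries the transcription factors SREBP2 and SREBP1 to the Golgi, where they are cut and released to switch on these enzymes. Insig proteins, sterols and the oxysterol made by Ch25h hold them back, and SREBP1 also drives the enzymes that build and desaturate fatty acids.

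The label calls the cells of both libraries tumor cells, while the methods of the study speak of sorted cells and call the retained barcodes, equal in number to those in the files, immune cells. The markers showed a mixture of both. A cell was put in a class when its markers for that class scored highest by a set margin, and the classes are named tumor-like, macrophage-like and so on for the list that led. Tumor-like cells were 6486 of 13316 in the Untreated library (48.7%) and 6932 of 13403 in the MSA-2 library (51.7%), and they held 79.8% and 84.2% of the UMIs. Macrophage-like cells numbered 3244 and 931 (24.4% and 6.95%), NK/T-like cells 1135 and 152, Ly6c2-type monocyte-like cells 306 and 729, and fibroblast-like cells 193 and 564. Neutrophil-like cells numbered 31 and 2429, dendritic-like cells 146 and 16, and endothelial-like cells 63 and 80. Smaller still were the B/plasma-like cells (10 and 5), mast-like cells (18 and 18), muscle-like cells (6 and 2), keratinocyte-like cells (1 and 0) and adipocyte-like cells (0 and 0). No class was given to 1677 and 1545 cells. The margin was close, under the stricter lead of 0.2, for 334 and 446 tumor-like, 286 and 148 macrophage-like, 129 and 27 NK/T-like, 21 and 103 fibroblast-like and 78 and 92 Ly6c2-type monocyte-like cells.

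The tumor list was not led by epithelial genes in these cells. Its 10 genes summed to 3399 and 3948 CPM in tumor-like cells, led by Gng11 at 1324 and 2107 CPM, while 5 of the 10 (Krt8, Krt18, Krt7, Krt19 and Ccn2) were under 5 CPM in both libraries. Fibroblast markers summed to 1929 and 2521 CPM in the same cells, led by Col3a1 and by Dcn, with 1 of 10 under 5 CPM. Keratinocyte markers were under 5 CPM for 5 of 6 genes. Markers of other classes differed between the libraries inside the tumor-like class: the macrophage list summed to 352 and 110 CPM, led by C1qa at 130 and 38.4 CPM, with 2 and 5 of 10 genes under 5 CPM. The neutrophil list summed to 7.19 and 486 CPM, with 10 and 3 of 10 genes under 5 CPM, and the Ly6c2-type monocyte list to 287 and 587 CPM, led by Vcan. As medians over tumor-like cells these 3 lists measured 333 and 94.8 CPM, 0 and 388 CPM, and 214 and 457 CPM. Their part in the results that follow was not tested.

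Over all kept cells, the summed level of the 18 cholesterol enzymes fell from 884 to 512 CPM (161849 and 98252 UMIs, log2 ratio -0.79, interval -0.80 to -0.78). The ratio was below 0 for all 18 and past the fold for 10, and the median over them was -0.67. The 4 regulators and carriers summed to 150.3 and 113 CPM (log2 ratio -0.41, interval -0.44 to -0.39), 2 of them lower past the fold. The 6 fatty acid enzymes summed to 388 and 315 CPM (log2 ratio -0.30, interval -0.32 to -0.29), 2 of them lower. That sum joined unlike parts: the desaturases Scd1 and Scd2 fell together from 139 to 70.3 CPM (log2 ratio -0.98), and the other 4 enzymes stood at 249 and 244 CPM (-0.03). Of the 28 genes, 14 were lower past the fold and 0 higher, with a median log2 ratio of -0.57. Among all 17408 features with at least 50 UMIs, 14.9% were lower and 17.1% higher, with a median of 0.01. Because the 28 genes were chosen with earlier results of these data known, the difference from these shares is not a test. Tumor-like cells held 89.9% and 91.9% of the cholesterol enzyme UMIs and 91.2% and 92.0% of the fatty acid enzyme UMIs, so the values over all cells mostly describe them.

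Most of these genes moved the same way, so the promoters of 4 are printed: Hmgcs1 and Cyp51 from the cholesterol arm, Insig1 from the regulators, and Fasn, which did not fall. RefSeq promoter windows (build GRCm38.p6, the mm10 genome of the labels) of 300 bases, 250 before and 50 after the start of transcription, were found for 22 of the 28 genes. Fdps, Fdft1, Sqle, Stard4, Scd1 and Scd2 had none. The windows are chr13:119690101-119690400 on the + strand for Hmgcs1, chr5:4104648-4104947 on the - strand for Cyp51, chr5:28071162-28071461 on the + strand for Insig1 and chr11:120824498-120824797 on the - strand for Fasn, each written along the gene, 5′ to 3′. Capitals mark matches on either strand to a sterol regulatory element (TCACNCCAC), a CCAAT box (CCAAT) or a GC box (GGGCGG), with N for any base.
Hmgcs1: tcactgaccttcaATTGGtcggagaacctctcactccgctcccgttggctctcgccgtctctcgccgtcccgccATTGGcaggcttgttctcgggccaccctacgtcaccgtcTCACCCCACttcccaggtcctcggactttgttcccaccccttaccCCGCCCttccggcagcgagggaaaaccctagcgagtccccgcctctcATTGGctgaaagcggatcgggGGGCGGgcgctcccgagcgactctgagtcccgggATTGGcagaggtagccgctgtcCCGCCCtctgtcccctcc
Cyp51: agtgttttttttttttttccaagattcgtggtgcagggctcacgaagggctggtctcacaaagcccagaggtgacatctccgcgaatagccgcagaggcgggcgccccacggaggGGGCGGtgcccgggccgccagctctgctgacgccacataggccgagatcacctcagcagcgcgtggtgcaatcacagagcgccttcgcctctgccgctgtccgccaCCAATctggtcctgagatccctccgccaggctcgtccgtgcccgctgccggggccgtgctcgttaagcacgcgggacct
Insig1: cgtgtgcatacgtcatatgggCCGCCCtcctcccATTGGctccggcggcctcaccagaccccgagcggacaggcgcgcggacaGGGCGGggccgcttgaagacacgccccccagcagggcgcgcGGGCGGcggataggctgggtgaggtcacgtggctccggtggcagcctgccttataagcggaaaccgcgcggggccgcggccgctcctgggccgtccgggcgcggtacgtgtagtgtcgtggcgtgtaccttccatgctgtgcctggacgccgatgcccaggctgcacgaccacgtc
Fasn: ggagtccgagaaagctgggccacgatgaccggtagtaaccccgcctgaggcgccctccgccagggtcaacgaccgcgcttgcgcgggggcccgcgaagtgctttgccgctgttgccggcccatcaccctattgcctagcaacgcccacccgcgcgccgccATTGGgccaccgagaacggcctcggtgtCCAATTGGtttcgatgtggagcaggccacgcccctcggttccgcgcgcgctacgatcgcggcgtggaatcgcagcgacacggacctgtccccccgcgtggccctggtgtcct

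The sterol regulatory element letters were found in 1 of the 22 genes, Hmgcs1, starting 137 bases before its start site, and in 1.24% of the 32851 promoter windows in the table. CCAAT occurred in windows of 19 of the 22 genes, 74.1% of their 27 windows against 37.4% of all windows. GGGCGG occurred in 18 of the 22, also 74.1% of their windows, against 35.7% of all. Hmgcs1 held 4 CCAAT and 3 GGGCGG matches, Cyp51 1 of each, Insig1 1 and 3, and Fasn 3 and 0. The capital run CCAATTGG in Fasn is a pair of overlapping CCAAT matches on opposite strands. These matches describe letters in a window, and no binding was measured.

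The first enzymes turn acetyl-CoA into mevalonate and then into farnesyl pyrophosphate. Acat2, which joins a pair of acetyl-CoA molecules, measured 16.5 and 12.6 CPM (3013 and 2421 UMIs, log2 ratio -0.38, interval -0.46 to -0.31) over all cells. Hmgcs1 condenses its product with acetyl-CoA to HMG-CoA, and fell from 84.4 to 46.5 CPM (15451 and 8919 UMIs, log2 ratio -0.86, interval -0.90 to -0.82). In tumor-like cells Hmgcs1 fell from 94.6 to 51.1 CPM (13830 and 8259 UMIs, log2 ratio -0.89, interval -0.93 to -0.85). The kinases that add the phosphates to mevalonate differed: Mvk, the earlier of them, was at 20.4 and 15.9 CPM (3733 and 3059 UMIs, log2 ratio -0.36, interval -0.43 to -0.29) over all cells, while Pmvk, the later, fell from 82.6 to 42.7 CPM (15122 and 8202 UMIs, log2 ratio -0.95, interval -0.99 to -0.91). Among tumor-like cells, Pmvk fell from 88.6 to 43.9 CPM (12949 and 7097 UMIs, log2 ratio -1.01, interval -1.05 to -0.97). Mvd, the decarboxylase that makes isopentenyl pyrophosphate, stood at 14.1 and 9.93 CPM (2583 and 1906 UMIs, log2 ratio -0.51, interval -0.59 to -0.42) over all cells, short of the fold.

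Idi1 interconverts the isopentenyl units, and over all cells it fell from 41.5 to 24.3 CPM (7590 and 4668 UMIs, log2 ratio -0.77, interval -0.82 to -0.72), with a fall from 46.8 to 27.3 CPM (6840 and 4417 UMIs, log2 ratio -0.78, interval -0.83 to -0.72) in tumor-like cells. Fdps condenses those units to farnesyl pyrophosphate, the branch point toward sterols and prenylated proteins. It supplied the most UMIs of the 28 genes and fell from 223 to 135 CPM (40808 and 26010 UMIs, log2 ratio -0.72, interval -0.74 to -0.70) over all cells and from 262 to 151 CPM (38262 and 24428 UMIs, log2 ratio -0.79, interval -0.82 to -0.77) in tumor-like cells. The cholesterol sum did not rest on it, since without Fdps the log2 ratio was -0.81 over all cells and -0.85 in tumor-like cells. Fdft1, squalene synthase, commits the pathway to sterols and measured 28.7 and 22.0 CPM (5254 and 4222 UMIs, log2 ratio -0.38, interval -0.44 to -0.33) over all cells. Its gene overlaps Ctsb, a lysosomal protease gene, so UMIs near the overlap are uncertain. Sqle adds oxygen to squalene, and it fell from 66.4 to 42.9 CPM (12158 and 8228 UMIs, log2 ratio -0.63, interval -0.67 to -0.59) over all cells and from 77.6 to 48.0 CPM (11348 and 7753 UMIs, log2 ratio -0.70, interval -0.74 to -0.65) in tumor-like cells. Lss closes squalene epoxide to lanosterol and had few UMIs, at 4.78 and 4.30 CPM (876 and 825 UMIs, log2 ratio -0.15, interval -0.29 to -0.02) over all cells.

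Past lanosterol, the enzymes strip methyl groups and move double bonds, and the lowest ratios of the 28 genes over all cells and in tumor-like cells were found here, at Cyp51. Cyp51 removes the first methyl group from lanosterol and fell from 109 to 43.5 CPM (19945 and 8349 UMIs, log2 ratio -1.32, interval -1.36 to -1.29) over all cells. In tumor-like cells it fell from 122 to 48.2 CPM (17850 and 7796 UMIs, log2 ratio -1.34, interval -1.38 to -1.30), a ratio lower than that of all but 3.11% of the features tested. Tm7sf2, a sterol reductase, had the fewest UMIs, 0.961 and 0.781 CPM (176 and 150 UMIs, log2 ratio -0.30, interval -0.62 to 0.02) over all cells, an interval that spans 0, and it overlaps Vps51. Msmo1 begins removal of the next methyl groups and fell from 83.2 to 41.3 CPM (15233 and 7934 UMIs, log2 ratio -1.01, interval -1.05 to -0.97) over all cells and from 94.2 to 45.9 CPM (13770 and 7417 UMIs, log2 ratio -1.04, interval -1.08 to -0.997) in tumor-like cells. Nsdhl and Hsd17b7 complete that removal. Nsdhl fell from 14.4 to 8.70 CPM (2643 and 1671 UMIs, log2 ratio -0.73, interval -0.82 to -0.64) over all cells, and from 15.5 to 9.19 CPM (2270 and 1485 UMIs, log2 ratio -0.76, interval -0.85 to -0.66) in tumor-like cells. Hsd17b7 fell from 14.7 to 7.30 CPM (2683 and 1401 UMIs, log2 ratio -1.01, interval -1.10 to -0.91) over all cells, and from 16.7 to 7.77 CPM (2446 and 1256 UMIs, log2 ratio -1.11, interval -1.21 to -1.01) in tumor-like cells.

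The last steps of the list isomerise, desaturate and reduce the sterol rings. Ebp, the isomerase, was at 32.4 and 22.5 CPM (5930 and 4318 UMIs, log2 ratio -0.53, interval -0.58 to -0.47) over all cells. Sc5d, the desaturase, fell from 28.5 to 16.6 CPM (5218 and 3190 UMIs, log2 ratio -0.78, interval -0.84 to -0.71) over all cells and from 32.1 to 17.8 CPM (4687 and 2884 UMIs, log2 ratio -0.85, interval -0.91 to -0.78) in tumor-like cells. Dhcr7 makes cholesterol from its immediate precursor and measured 18.8 and 14.5 CPM (3433 and 2779 UMIs, log2 ratio -0.37, interval -0.45 to -0.30) over all cells. So the genes past the fold were spread along the pathway, from Hmgcs1 near its start to Sc5d near its end, with 8 enzymes between the limits (Acat2, Mvk, Mvd, Fdft1, Lss, Tm7sf2, Ebp and Dhcr7) that were also below 0.

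Of the regulators, the genes for the SREBP factors themselves stayed short of the fold over all cells. Srebf2, which encodes SREBP2, was at 72.6 and 67.0 CPM (13297 and 12859 UMIs, log2 ratio -0.12, interval -0.15 to -0.08), and Srebf1, which encodes SREBP1, at 18.5 and 15.6 CPM (3383 and 3001 UMIs, log2 ratio -0.24, interval -0.31 to -0.17). Srebf1 overlaps Rai1, which leaves its UMIs near the overlap uncertain. Insig1 holds SCAP in the endoplasmic reticulum and is itself an SREBP target. It fell from 42.5 to 19.5 CPM (7788 and 3750 UMIs, log2 ratio -1.12, interval -1.18 to -1.07) over all cells and from 44.1 to 19.7 CPM (6438 and 3181 UMIs, log2 ratio -1.16, interval -1.22 to -1.10) in tumor-like cells. Stard4 carries cholesterol between membranes, and it fell from 16.7 to 10.9 CPM (3057 and 2101 UMIs, log2 ratio -0.61, interval -0.69 to -0.53) over all cells and, at the edge of the limit, from 17.5 to 11.7 CPM (2558 and 1887 UMIs, log2 ratio -0.58, interval -0.67 to -0.50) in tumor-like cells.

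The fatty acid enzymes split by step. Acly, which makes cytosolic acetyl-CoA from citrate, measured 78.4 and 60.3 CPM (14345 and 11582 UMIs, log2 ratio -0.38, interval -0.41 to -0.34) over all cells. Acaca makes malonyl-CoA and was at 51.7 and 59.9 CPM (9471 and 11490 UMIs, log2 ratio 0.21, interval 0.17 to 0.25), and it overlaps Tada2a and Gm11437. Fasn builds palmitate from malonyl-CoA and stood at 88.4 and 101 CPM (16176 and 19445 UMIs, log2 ratio 0.20, interval 0.17 to 0.23) over all cells and 103 and 113 CPM (15048 and 18266 UMIs, log2 ratio 0.13, interval 0.10 to 0.17) in tumor-like cells. Acaca and Fasn were the 2 genes of the 28 with a ratio above 0 over all cells, both short of the fold. Elovl6 lengthens palmitate and was at 30.6 and 23.0 CPM (5611 and 4407 UMIs, log2 ratio -0.42, interval -0.47 to -0.36). Scd1 and Scd2 place the double bond that makes monounsaturated fatty acids. Scd1 fell from 42.0 to 22.3 CPM (7698 and 4285 UMIs, log2 ratio -0.91, interval -0.97 to -0.86) over all cells and from 50.1 to 24.4 CPM (7317 and 3947 UMIs, log2 ratio -1.04, interval -1.09 to -0.98) in tumor-like cells. Scd2 fell from 96.8 to 48.0 CPM (17713 and 9213 UMIs, log2 ratio -1.01, interval -1.05 to -0.98) over all cells and from 111 to 52.2 CPM (16239 and 8431 UMIs, log2 ratio -1.09, interval -1.13 to -1.05) in tumor-like cells.

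**Figure D1:**
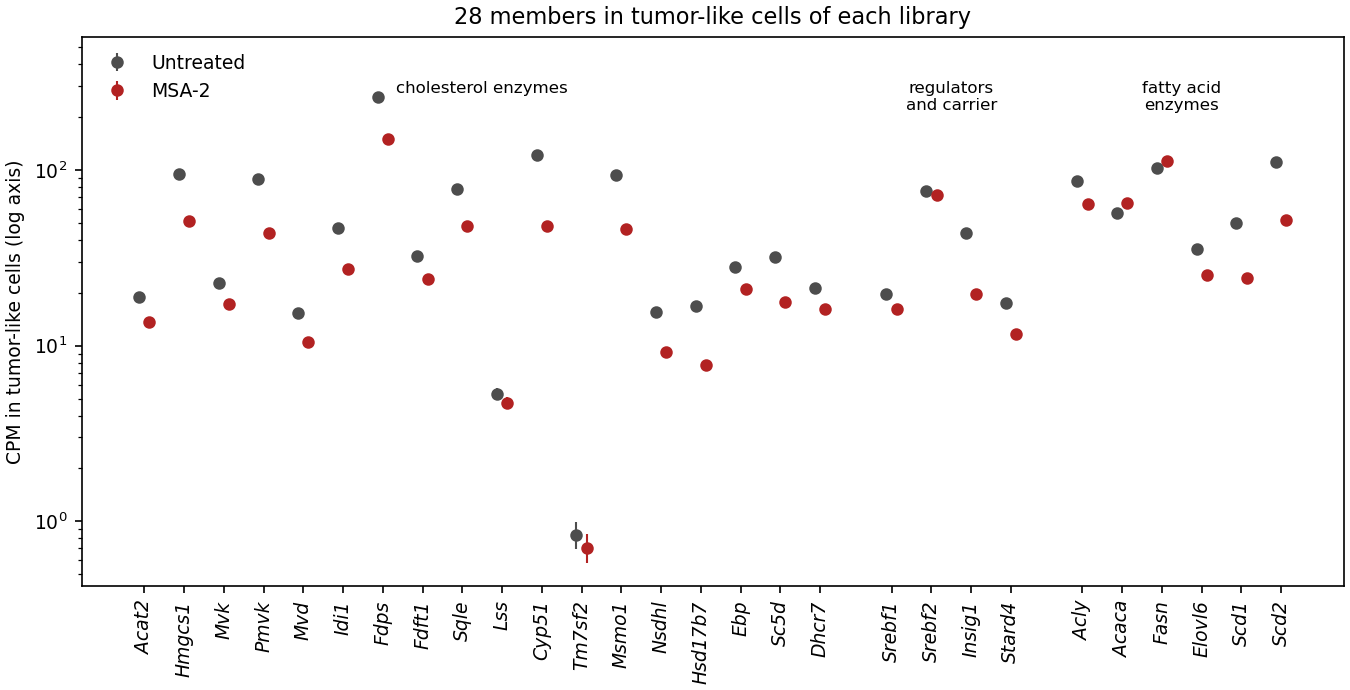
CPM on a log axis of each of the 28 genes in tumor-like cells of the Untreated and MSA-2 libraries, grouped by role, with bars for 95% Poisson intervals of the counts. Cyp51 stands at 122 and 48.2 CPM, Scd2 at 111 and 52.2 CPM, and Fasn at 103 and 113 CPM.

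In tumor-like cells the cholesterol enzymes summed to 995 CPM in the Untreated library and fell to 558 CPM in the MSA-2 library (log2 ratio -0.83, interval -0.85 to -0.82), with 10 of 18 lower and a median of -0.73. Regulators and carriers summed to 157 and 119.7 CPM (log2 ratio -0.40, interval -0.42 to -0.37). The fatty acid enzymes summed to 443 and 344 CPM (log2 ratio -0.37, interval -0.38 to -0.35), made of a fall from 161 to 76.6 CPM for Scd1 and Scd2 (log2 ratio -1.07) and of 282 and 267 CPM for the other 4 (-0.08). The plot of CPM by gene in tumor-like cells shows 26 of 28 genes lower in the MSA-2 library, 14 of them past the fold, and 0 higher past it, with a median log2 ratio of -0.57. Of all 16079 features tested in these cells, 11.9% were lower and 17.5% higher, and the median was 0.05. The intervals of 25 genes lay below 0 and those of Fasn and Acaca above it.

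The shift was seen across the cells of the class. The median tumor-like cell had 812 CPM of cholesterol enzyme RNA in the Untreated library and 442 CPM in the MSA-2 library, with middle ranges (25th to 75th percentile) of 502 to 1268 and 272 to 701 CPM, at median depths of 20378 and 20193 UMIs. Of the MSA-2 cells, 81.2% (5627) lay below the Untreated median and 5.57% (386) above the Untreated 75th percentile. For the fatty acid enzymes the medians were 392 and 309 CPM. At least 1 cholesterol enzyme UMI was found in 98.6% and 97.1% of cells. With each cell thinned to 1500 UMIs, and 54 and 56 shallower cells left out, the shares were 68.6% (exact 95% interval 67.5% to 69.8%) and 50.2% (49.0% to 51.4%). The thinned shares for the fatty acid enzymes were 44.9% and 39.5%, and the unthinned ones 96.8% and 95.7%.

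**Figure D2:**
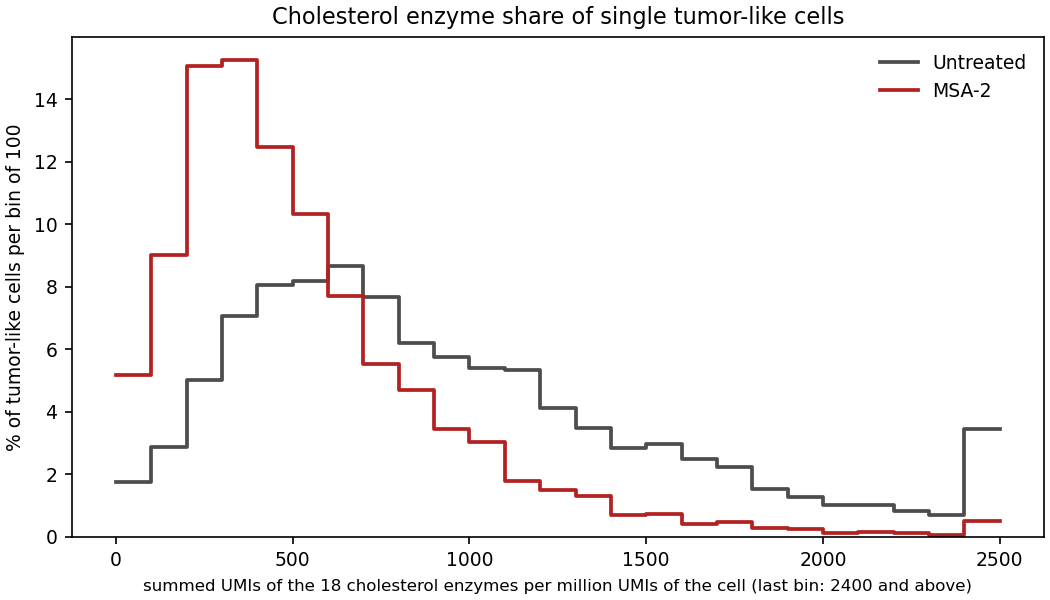
Percent of tumor-like cells (vertical axis) by the share of their UMIs that came from the 18 cholesterol enzymes, in bins of 100 CPM (horizontal axis, last bin open), for the Untreated and MSA-2 libraries. The medians are 812 and 442 CPM, and 5.57% of MSA-2 cells lie above the Untreated 75th percentile.

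The tumor-like cells of the libraries fell in different expression clusters, which were built without any of the 28 genes among their 2000 variable genes. Clusters 0, 1 and 3 held 2883, 2103 and 1245 of the Untreated cells, and clusters 2, 17 and 19 held 2834, 2122 and 1618 of the MSA-2 cells, so clusters and libraries can hardly be told apart. Over clusters with at least 50 tumor-like cells, the cholesterol sum ran from 688 to 1035 CPM in 5 Untreated clusters and from 492 to 591 CPM in 6 MSA-2 clusters, ranges that did not overlap. Cyp51 ran from 85.1 to 149 CPM in the same Untreated clusters and from 29.3 to 57.8 CPM in the MSA-2 clusters. How many of all features had ranges that did not overlap was not computed, and clusters of the same library are not replicates. The fatty acid sums overlapped, at 292 to 522 and 266 to 382 CPM. Fdps was among the 10 leading genes of cluster 1 and Scd2 among those of cluster 3. Clusters 0 and 2 were the pair that held at least 50 tumor-like cells of each library. In cluster 0 (2883 and 50 cells) the cholesterol sum measured 966 and 503 CPM (log2 ratio -0.94, interval -1.09 to -0.80), and in cluster 2 (51 and 2834 cells) 688 and 551 CPM (log2 ratio -0.32, interval -0.45 to -0.18), a smaller difference that did not pass the fold. The fatty acid sum measured 433 and 339 CPM (log2 ratio -0.35, interval -0.53 to -0.18) in cluster 0 and 292 and 343 CPM (log2 ratio 0.23, interval 0.03 to 0.44) in cluster 2, where its direction was the opposite. Within cluster 2, Fdps was at 164 and 163 CPM and Scd2 at 36.1 and 48.7 CPM, while Cyp51, Hmgcs1 and Insig1 were lower in the MSA-2 cells. Median depths there were 9620 and 23827 UMIs, and the interferon-stimulated list summed to 17453 and 6973 CPM.

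**Figure D3:**
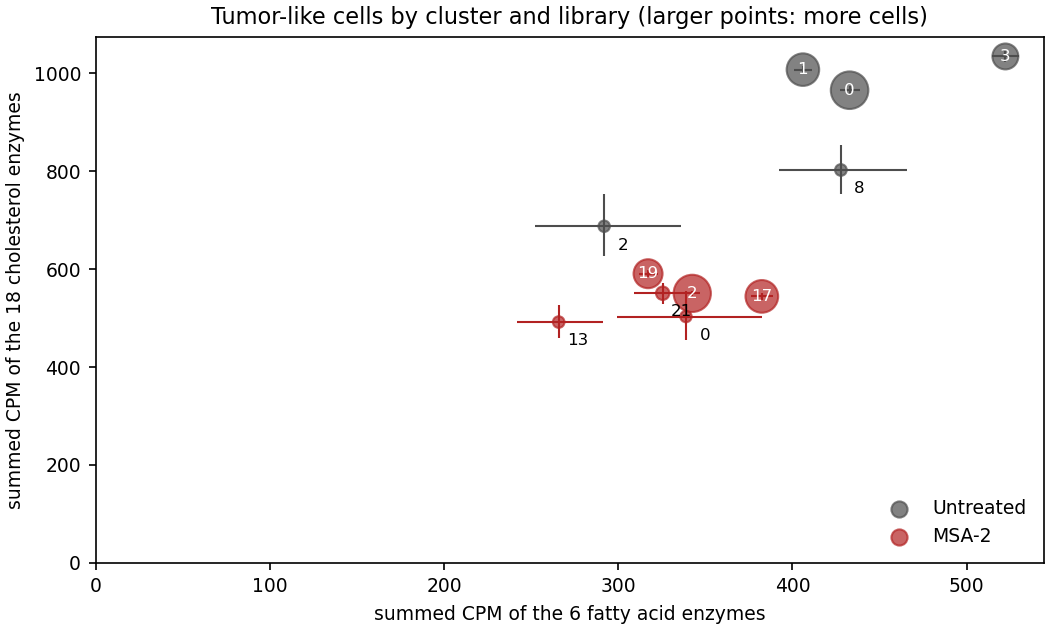
Summed CPM of the 18 cholesterol enzymes against summed CPM of the 6 fatty acid enzymes for each cluster with at least 50 tumor-like cells, by library, with 95% Poisson intervals, cluster numbers beside the points and larger points for more cells. Cholesterol sums span 688 to 1035 CPM in Untreated clusters and 492 to 591 CPM in MSA-2 clusters, while the fatty acid sums overlap and in cluster 2 run the other way, 292 and 343 CPM.

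Cluster 21 was led by 2 neutrophil markers and cluster 8 by 3 B/plasma markers, and they held 161 MSA-2 and 64 Untreated tumor-like cells, the larger part of the 119 and 260 cells found in clusters led by markers of another class. Without those clusters the cholesterol sum measured 998 and 559 CPM (log2 ratio -0.83, interval -0.85 to -0.82) and the fatty acid sum 443 and 346 CPM (log2 ratio -0.36, interval -0.38 to -0.34). In cluster 21 the MSA-2 cells had a cholesterol sum of 551 CPM and a fatty acid sum of 326 CPM. In cluster 8 the Untreated cells had a cholesterol sum of 803 CPM and a fatty acid sum of 428 CPM.

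Cycling and hypoxia were compared as states of the tumor-like cells, by gates of 3 of 10 genes in thinned cells. Cycling cells made up 13.4% and 14.7% of the class. The cholesterol ratio was -0.81 among them and -0.84 among the rest, and the fatty acid ratio -0.31 and -0.38. Hypoxic cells made up 19.6% and 17.0%, with cholesterol ratios of -0.81 inside and -0.84 outside the gate and fatty acid ratios of -0.54 and -0.33. The cycling list summed to 1050.0 and 1109 CPM (log2 ratio 0.08) with 0 of 10 genes past the fold, the hypoxia list to 1557 and 1452 CPM (log2 ratio -0.10) with 1 higher and 1 lower, and the interferon-stimulated list to 3505 and 6638 CPM (log2 ratio 0.92) with 8 of 10 higher.

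Other genes of the pathway came from lists that were written with earlier results known. Mylip, a ubiquitin ligase switched on by LXR, fell in tumor-like cells from 21.8 to 8.78 CPM (3183 and 1419 UMIs, log2 ratio -1.31, interval -1.40 to -1.22). Mbtps2, a protease that releases the SREBPs, rose from 13.7 to 22.6 CPM (1999 and 3659 UMIs, log2 ratio 0.73, interval 0.65 to 0.81). Of 12 further fatty acid genes, 11 were tested in these cells, 2 higher and 1 lower, shares near the 17.5% and 11.9% of all features there, with a sum of 442 and 421 CPM (log2 ratio -0.07). Acsl3 and Acsl4 activate fatty acids and moved in opposite directions, Acsl3 falling from 58.2 to 26.7 CPM (8505 and 4309 UMIs, log2 ratio -1.13, interval -1.18 to -1.07) and Acsl4 rising from 55.5 to 89.8 CPM (8117 and 14522 UMIs, log2 ratio 0.69, interval 0.65 to 0.73). The carboxylase Acacb was the other gene that rose, from 0.458 to 0.823 CPM (67 and 133 UMIs, log2 ratio 0.84, interval 0.41 to 1.29).

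In tumor-like cells, 2 of the 11 efflux, storage and LXR genes were higher and 3 lower, beside 17.5% and 11.9% of all features. Their list summed to 968 and 574 CPM (log2 ratio -0.75). Much of the difference in that sum was Apoe, since without it the list summed to 555 and 468 CPM (log2 ratio -0.25). Apoe, the lipoprotein that carries cholesterol out of cells, fell from 413 to 106 CPM (60364 and 17198 UMIs, log2 ratio -1.96, interval -1.98 to -1.93). The macrophage marker list in tumor-like cells was at 1.77% and 0.659% of its macrophage-like level, and those shares of the macrophage-like Apoe level come to 424 and 114 CPM. The transporter Abcg1 fell from 1.48 to 0.767 CPM (216 and 124 UMIs, log2 ratio -0.95, interval -1.28 to -0.62) and the phospholipid acyltransferase Lpcat3 from 52.2 to 29.8 CPM (7636 and 4821 UMIs, log2 ratio -0.81, interval -0.86 to -0.76). Abca1, the other sterol exporter, was at 6.31 and 4.80 CPM (922 and 776 UMIs, log2 ratio -0.39, interval -0.53 to -0.25). The same shares of the macrophage-like levels come to 1.39 and 0.381 CPM for Abcg1 and to 7.83 and 2.91 CPM for Abca1, close to or above the measured Untreated values and below the measured MSA-2 values. Ch25h makes the oxysterol that holds the SREBPs back, and it rose from 1.41 to 2.39 CPM (206 and 386 UMIs, log2 ratio 0.76, interval 0.51 to 1.01), below its level in macrophage-like, monocyte-like and fibroblast-like cells of either library. How much of the Apoe, Abcg1, Abca1 and Ch25h RNA in tumor-like cells came from other cells was not tested. Lipa frees cholesterol in lysosomes and rose from 29.8 to 48.8 CPM (4351 and 7896 UMIs, log2 ratio 0.71, interval 0.66 to 0.77). Cpt1a, an acyltransferase for the entry of fatty acids into mitochondria, rose from 6.36 to 9.72 CPM (930 and 1572 UMIs, log2 ratio 0.61, interval 0.49 to 0.73). It is from a list of 8 fatty acid oxidation genes. The others of that list are not described in this report, so Cpt1a does not stand for the list.

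Macrophage-like cells lay in different clusters in the libraries. Of the 3244 Untreated cells, 1996 were in cluster 4 and 1091 in cluster 5. Of the 931 MSA-2 cells, 466 were in cluster 6, whose leading genes held 3 Ly6c2-type monocyte markers and 0 macrophage markers, 226 in cluster 4 and 218 in cluster 16. As medians over the cells, the macrophage list measured 19607 and 14667 CPM, the Ly6c2-type monocyte list 107 and 631 CPM, the neutrophil list 0 and 578 CPM and the tumor list 442 and 578 CPM. The cholesterol sum fell from 356 to 207 CPM (log2 ratio -0.79, interval -0.88 to -0.69), 7 of 18 genes lower. Without the clusters led by markers of another class (103 and 476 cells) it measured 353 and 220.1 CPM (log2 ratio -0.68, interval -0.80 to -0.56). Within cluster 4 the sum was 345 and 237 CPM (log2 ratio -0.54, interval -0.72 to -0.37), and within cluster 16, with 50 and 218 cells, 313 and 205 CPM (log2 ratio -0.61, interval -0.95 to -0.26).

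Regulators and carriers in macrophage-like cells fell from 99.0 to 66.2 CPM (log2 ratio -0.58, interval -0.76 to -0.41), with 3 of 4 lower. That sum is at the edge of the limit, and the TMM scaling shift of 0.04 takes it short. The fatty acid sum was 119.7 and 96.0 CPM (log2 ratio -0.32, interval -0.46 to -0.18), with 1 of 6 lower, and 119.6 and 104 CPM (log2 ratio -0.20, interval -0.39 to -0.03) without the clusters led by other markers. Scd1 and Scd2 together fell from 33.6 to 18.3 CPM (log2 ratio -0.88), and the other 4 were at 86.1 and 77.7 CPM (-0.15). In all, 11 of 28 genes were lower and 0 higher, 25 were below 0, and the median was -0.50. Of 11285 features tested in these cells, 16.4% were lower and 12.1% higher, with a median of -0.13. Per cell, the median share of cholesterol enzyme RNA was 304 and 163 CPM, and cells with at least 1 such UMI made up 79.0% and 59.0% of the class, or 39.4% and 27.3% of thinned cells with 118 and 57 left out.

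Cyp51 again had the lowest ratio of the 28 in macrophage-like cells, falling from 37.9 to 8.93 CPM (724 and 44 UMIs, log2 ratio -2.09, interval -2.56 to -1.65). Stard4, the sterol carrier, fell from 9.68 to 4.06 CPM (185 and 20 UMIs, log2 ratio -1.25, interval -1.999 to -0.59) and the methyl sterol oxidase Msmo1 from 34.7 to 16.0 CPM (663 and 79 UMIs, log2 ratio -1.11, interval -1.47 to -0.78). The desaturase Scd2 fell from 26.9 to 13.4 CPM (515 and 66 UMIs, log2 ratio -1.01, interval -1.40 to -0.64). At the early steps, Fdps fell from 55.0 to 29.4 CPM (1051 and 145 UMIs, log2 ratio -0.90, interval -1.16 to -0.65), Hmgcs1 from 30.3 to 16.6 CPM (579 and 82 UMIs, log2 ratio -0.86, interval -1.22 to -0.53) and Pmvk from 52.5 to 31.9 CPM (1003 and 157 UMIs, log2 ratio -0.72, interval -0.97 to -0.48). Late in the pathway, Ebp fell from 49.0 to 27.8 CPM (937 and 137 UMIs, log2 ratio -0.82, interval -1.09 to -0.56) and Sc5d from 9.63 to 5.88 CPM (184 and 29 UMIs, log2 ratio -0.71, interval -1.33 to -0.14). Srebf2, which was nearly level in tumor-like cells at 76.1 and 72.1 CPM (-0.08), fell here from 43.3 to 27.2 CPM (827 and 134 UMIs, log2 ratio -0.67, interval -0.94 to -0.41). Insig1 fell from 34.5 to 22.7 CPM (660 and 112 UMIs, log2 ratio -0.60, interval -0.91 to -0.31). Whether any gene differed between classes in its change was not tested.

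Of all features in macrophage-like cells, 12.1% were higher and 16.4% lower. The further fatty acid genes there had 1 higher and 0 lower of 10 tested and summed to 256 and 240.0 CPM (log2 ratio -0.09). The riser was Me1, which makes NADPH for synthesis, from 7.33 to 14.8 CPM (140 and 73 UMIs, log2 ratio 1.02, interval 0.59 to 1.43). Of the 11 efflux, storage and LXR genes, 3 were higher and 0 lower, beside the 12.1% and 16.4% of all features. Their median was 0.22. The list summed to 26504 and 20345 CPM (log2 ratio -0.38), a direction set by Apoe at 23906 and 17236 CPM (log2 ratio -0.47), and without Apoe it summed to 2598 and 3109 CPM, a ratio of 0.26 the other way. Ch25h rose from 37.6 to 85.6 CPM (718 and 422 UMIs, log2 ratio 1.19, interval 1.01 to 1.36), Soat1, which esterifies cholesterol for storage, from 81.5 to 155 CPM (1557 and 763 UMIs, log2 ratio 0.93, interval 0.80 to 1.05), and Nr1h3, which encodes LXR alpha, from 21.4 to 37.7 CPM (408 and 186 UMIs, log2 ratio 0.82, interval 0.56 to 1.08). Abca1 stood at 441 and 442 CPM (log2 ratio 0.00), Abcg1 at 78.3 and 57.8 CPM (log2 ratio -0.44) and Mylip at 77.5 and 60.3 CPM (log2 ratio -0.36). Cpt1a, given again without the rest of its list, rose from 20.9 to 35.1 CPM (400 and 173 UMIs, log2 ratio 0.75, interval 0.48 to 1.01). The cycling list summed to 499.6 and 403 CPM (log2 ratio -0.31) with 4 lower, the hypoxia list to 920.1 and 821 CPM (log2 ratio -0.16) with 2 higher and 2 lower, and the interferon-stimulated list to 6865 and 18830.5 CPM (log2 ratio 1.46) with 9 higher.

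Ly6c2-type monocyte-like cells came from cluster 5 in the Untreated library (293 of 306 cells) and from cluster 6 in the MSA-2 library (710 of 729), so a difference between these clusters and a change within cells cannot be told apart. Their own marker list had cell medians of 7703 and 7360 CPM, the macrophage list 2209 and 1429 CPM and the neutrophil list 201 and 1086 CPM. The cholesterol sum fell from 505 to 239 CPM (log2 ratio -1.08, interval -1.24 to -0.92), the regulators and carriers from 149 to 84.4 CPM (log2 ratio -0.82, interval -1.11 to -0.53) and the fatty acid enzymes from 171 to 102 CPM (log2 ratio -0.75, interval -1.01 to -0.48). With 14 genes at 50 UMIs or more, 10 were lower and 0 higher, and their median was -0.84. The background here was larger than in the other classes: 30.2% of 6731 features were lower and 17.9% higher, with a median of -0.26.

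In these monocyte-like cells, the demethylase Cyp51 fell from 87.2 to 15.1 CPM (100 and 42 UMIs, log2 ratio -2.53, interval -3.09 to -1.999) and the oxidase Msmo1 from 62.8 to 15.1 CPM (72 and 42 UMIs, log2 ratio -2.06, interval -2.64 to -1.49). Acly, the citrate lyase, fell from 71.5 to 32.7 CPM (82 and 91 UMIs, log2 ratio -1.13, interval -1.58 to -0.68) and the desaturase Scd2 from 40.1 to 18.7 CPM (46 and 52 UMIs, log2 ratio -1.10, interval -1.70 to -0.50). On the mevalonate side, Fdps fell from 82.0 to 41.6 CPM (94 and 116 UMIs, log2 ratio -0.98, interval -1.38 to -0.57), Hmgcs1 from 31.4 to 16.9 CPM (36 and 47 UMIs, log2 ratio -0.90, interval -1.55 to -0.23) and Pmvk from 69.8 to 44.2 CPM (80 and 123 UMIs, log2 ratio -0.66, interval -1.08 to -0.24). The isomerase Ebp fell from 56.7 to 33.0 CPM (65 and 92 UMIs, log2 ratio -0.78, interval -1.25 to -0.30). Srebf2 and Insig1 were the regulators with enough UMIs, Srebf2 falling from 72.4 to 37.0 CPM (83 and 103 UMIs, log2 ratio -0.97, interval -1.40 to -0.53) and Insig1 from 53.2 to 31.2 CPM (61 and 87 UMIs, log2 ratio -0.77, interval -1.26 to -0.27). Ch25h rose from 2.62 to 28.7 CPM (3 and 80 UMIs, log2 ratio 3.46, interval 1.86 to 5.76) and Abca1 from 130.0 to 214 CPM (149 and 597 UMIs, log2 ratio 0.72, interval 0.46 to 0.99), and Abcg1 fell from 78.5 to 25.8 CPM (90 and 72 UMIs, log2 ratio -1.60, interval -2.07 to -1.14). The interferon-stimulated list summed to 3232 and 28262 CPM (log2 ratio 3.13).

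NK/T-like cells were drawn mostly from clusters 11 (514 cells), 7 (433) and 14 (126) in the Untreated library and from clusters 11 (77), 7 (35) and 10 (35) in the MSA-2 library. Their own markers had cell medians of 5604 and 3720 CPM, the macrophage list 443 and 0 CPM, the neutrophil list 0 and 341 CPM and the Ly6c2-type monocyte list 558 and 949 CPM, and the part of these lists in the change was not tested. The cholesterol sum was 453 and 319 CPM (log2 ratio -0.50, interval -0.70 to -0.32), short of the fold, with 6 of 10 tested genes lower. With classes taken from clusters it was -0.69, past the fold, and without Cyp51 -0.32. Within cluster 11 the sum measured 452 and 333 CPM (log2 ratio -0.44, interval -0.70 to -0.20). Regulators and carriers summed to 135 and 104 CPM (log2 ratio -0.38, interval -0.72 to -0.05), 2 of 4 lower, and the fatty acid enzymes to 169 and 144 CPM (log2 ratio -0.24, interval -0.53 to 0.05), an interval that spans 0, with -0.59 for classes taken from clusters. Of the 28 genes, 9 had under 50 UMIs. Among the 19 tested, 9 were lower, 0 were higher and the median was -0.54, beside 21.5% lower and 9.86% higher of 8208 features, with a median of -0.16.

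The lowest ratio among the 19 was that of Cyp51, which fell from 71.7 to 13.5 CPM (315 and 11 UMIs, log2 ratio -2.41, interval -3.43 to -1.55). Scd2 fell from 36.0 to 14.7 CPM (158 and 12 UMIs, log2 ratio -1.29, interval -2.27 to -0.44), Msmo1 from 31.9 to 13.5 CPM (140 and 11 UMIs, log2 ratio -1.24, interval -2.28 to -0.36) and Hmgcs1 from 46.9 to 23.3 CPM (206 and 19 UMIs, log2 ratio -1.01, interval -1.77 to -0.33). Fdps fell from 59.4 to 39.3 CPM (261 and 32 UMIs, log2 ratio -0.60, interval -1.18 to -0.07), short of the limit once the TMM scaling shift of 0.05 is added. The other 4 rested on few MSA-2 UMIs and had intervals that span 0: Sqle fell from 20.3 to 11.0 CPM (89 and 9 UMIs, log2 ratio -0.88, interval -2.05 to 0.11), Srebf1 from 15.3 to 8.59 CPM (67 and 7 UMIs, log2 ratio -0.83, interval -2.20 to 0.29), Sc5d from 25.3 to 15.9 CPM (111 and 13 UMIs, log2 ratio -0.66, interval -1.62 to 0.17) and Insig1 from 28.5 to 18.4 CPM (125 and 15 UMIs, log2 ratio -0.63, interval -1.51 to 0.15). Srebf2 and Ebp were with Cyp51 the genes with the most UMIs. Srebf2 was at 65.3 and 55.2 CPM (287 and 45 UMIs, log2 ratio -0.24, interval -0.73 to 0.21) and Ebp at 57.1 and 58.9 CPM (251 and 48 UMIs, log2 ratio 0.04, interval -0.43 to 0.49). In these cells the cycling list summed to 897 and 1250.0 CPM (log2 ratio 0.48) with 3 higher, and the interferon-stimulated list to 2356 and 11279.6 CPM (log2 ratio 2.26).

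Fibroblast-like cells shared cluster 13 in both libraries (187 of 193 and 559 of 564 cells). Their own markers had cell medians of 48519 and 28516 CPM, the Ly6c2-type monocyte list 1233 and 4475 CPM, the neutrophil list 0 and 430.4 CPM, the macrophage list 483 and 119 CPM and the tumor list 2014 and 1482 CPM. What these lists contribute here was not tested. The cholesterol sum fell from 436 to 242 CPM (log2 ratio -0.85, interval -0.96 to -0.74), with 8 of 15 tested genes lower, and the regulators and carriers from 114 to 68.5 CPM (log2 ratio -0.74, interval -0.95 to -0.52), with 3 of 4 lower. The fatty acid sum was 231 and 201 CPM (log2 ratio -0.20, interval -0.34 to -0.06), and its direction turned to 0.05 under TMM scaling, to 0.06 with free RNA subtracted and to 0.11 without Scd1 and Scd2. TMM moved all genes of this class by 0.25, beside -0.07 in tumor-like, 0.04 in macrophage-like and 0.05 in NK/T-like cells. On that scale the cholesterol ratio was -0.59 and 10 genes were past the fold, 8 lower and 2 higher. The share of all features past the fold on that scale was not computed. By total UMIs, 12 of 25 tested genes were lower and 0 higher, with a median of -0.50, and of 9896 features 21.4% were lower and 12.3% higher, with a median of -0.19.

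Hmgcs1 had the lowest ratio of the 25 and fell from 80.6 to 20.3 CPM (185 and 161 UMIs, log2 ratio -1.99, interval -2.30 to -1.68). Msmo1 fell from 30.9 to 9.46 CPM (71 and 75 UMIs, log2 ratio -1.71, interval -2.20 to -1.22), Stard4 from 16.6 to 5.68 CPM (38 and 45 UMIs, log2 ratio -1.54, interval -2.20 to -0.88) and Cyp51 from 50.5 to 21.3 CPM (116 and 169 UMIs, log2 ratio -1.25, interval -1.59 to -0.89). The isomerase of the isopentenyl units, Idi1, fell from 13.5 to 5.81 CPM (31 and 46 UMIs, log2 ratio -1.22, interval -1.91 to -0.51). Insig1 fell from 34.9 to 15.1 CPM (80 and 120 UMIs, log2 ratio -1.20, interval -1.62 to -0.78) and Scd2 from 72.8 to 37.0 CPM (167 and 293 UMIs, log2 ratio -0.98, interval -1.26 to -0.69). Pmvk fell from 25.3 to 13.5 CPM (58 and 107 UMIs, log2 ratio -0.90, interval -1.38 to -0.42), Ebp from 74.5 to 43.8 CPM (171 and 347 UMIs, log2 ratio -0.77, interval -1.04 to -0.49) and Sqle from 22.2 to 13.1 CPM (51 and 104 UMIs, log2 ratio -0.76, interval -1.26 to -0.25). Mvd, with an interval that spans 0, fell from 9.15 to 5.30 CPM (21 and 42 UMIs, log2 ratio -0.79, interval -1.58 to 0.04). Srebf2, at the limit of the fold, fell from 47.1 to 31.4 CPM (108 and 249 UMIs, log2 ratio -0.58, interval -0.91 to -0.24). Acly and Fdps, 2 of the 3 genes with the most UMIs here, did not pass it: Acly was at 45.3 and 55.5 CPM (104 and 440 UMIs, log2 ratio 0.29, interval -0.02 to 0.62) and Fdps at 56.7 and 48.2 CPM (130 and 382 UMIs, log2 ratio -0.23, interval -0.52 to 0.07).

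Beyond the 28 genes, Mylip fell in fibroblast-like cells from 36.2 to 12.6 CPM (83 and 100 UMIs, log2 ratio -1.52, interval -1.95 to -1.08). Ch25h rose from 3.92 to 150.2 CPM (9 and 1190 UMIs, log2 ratio 5.26, interval 4.33 to 6.39) on 9 Untreated UMIs, and Abca1 from 52.3 to 91.0 CPM (120 and 721 UMIs, log2 ratio 0.80, interval 0.52 to 1.09). The cycling list summed to 467 and 381 CPM (log2 ratio -0.29), the hypoxia list to 996 and 1591 CPM (log2 ratio 0.68) with 4 higher, and the interferon-stimulated list to 1934 and 14324 CPM (log2 ratio 2.89) with 10 of 10 higher.

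Droplets also catch RNA set free by other cells, and tumor-like cells held most of the RNA. Gng11, a tumor-list gene, was taken as a measure of that RNA, and whether other classes made their own Gng11 was not tested. In macrophage-like cells Gng11 stood at 13.4% and 15.4% of its tumor-like level and in NK/T-like cells at 14.5% and 13.2%. It was at 13.6% and 14.5% in the Ly6c2-type class and at 21.3% and 17.0% in the fibroblast-like class. The cholesterol sum stood higher, at 35.8% and 37.0% of its tumor-like level in macrophage-like, 45.5% and 57.1% in NK/T-like, 50.7% and 42.8% in Ly6c2-type monocyte-like and 43.8% and 43.4% in fibroblast-like cells. The fatty acid sum stood at 27.0% and 27.9%, 38.1% and 41.7%, 38.6% and 29.6% and 52.0% and 58.3% in the same order. In macrophage-like cells Ccn1 was at 9.85% and 13.6% and Anxa1 at 17.5% and 19.8% of the tumor-like level, on either side of Gng11, whereas fibroblast-like cells had Ccn1 at 109% and 97.8% of it, and Anxa1 at 63.1% and 53.2%.

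With the tumor-like level times the Gng11 share subtracted, an alternative chosen after seeing the data, the cholesterol ratio was -0.89 in macrophage-like, -0.33 in NK/T-like and -0.60 in fibroblast-like cells. The fatty acid ratio was -0.49, -0.09 and, with its direction turned, 0.06. How much of the change in these classes came with free RNA from tumor-like cells was not tested beyond this subtraction. No subtracted value is given for Ly6c2-type monocyte-like cells.

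**Figure D4:**
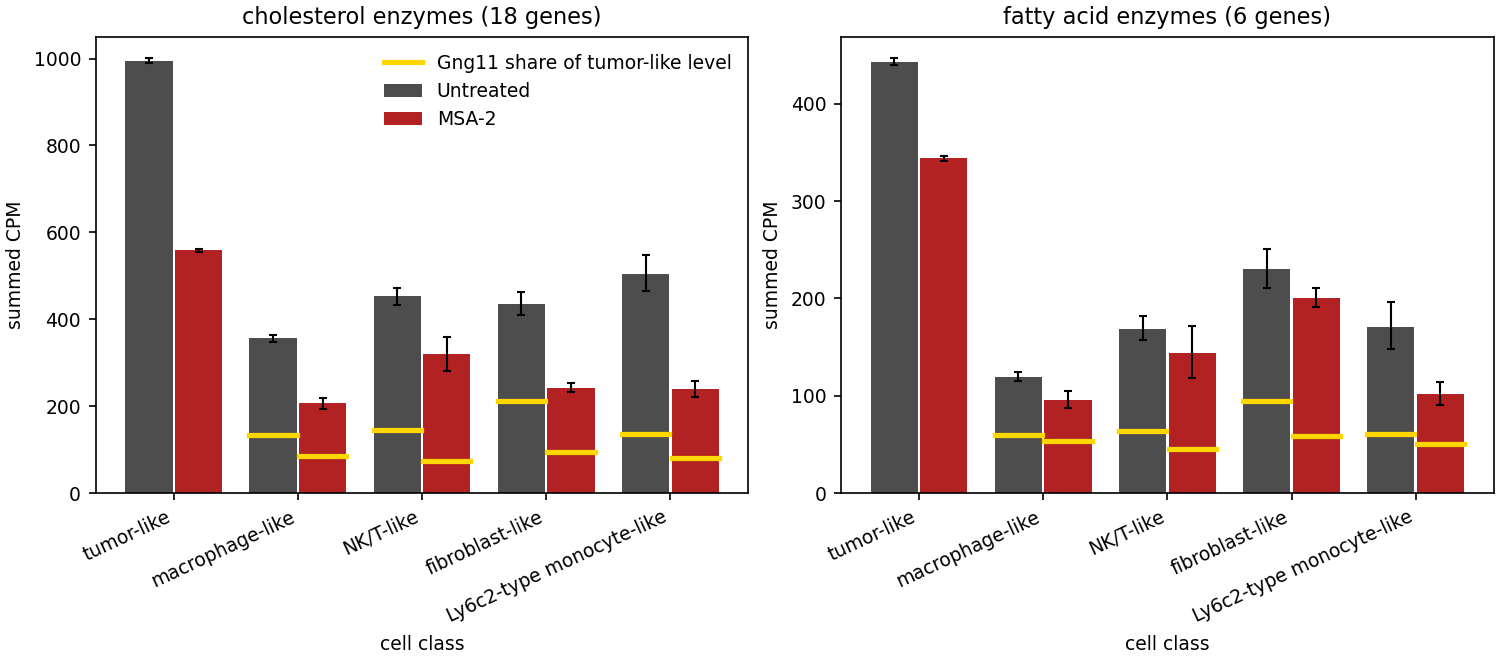
Summed CPM of the 18 cholesterol enzymes and of the 6 fatty acid enzymes in 5 cell classes of the Untreated and MSA-2 libraries, with 95% Poisson intervals and a yellow line for the tumor-like level times the Gng11 share of the class. Cholesterol sums are 995 and 558 CPM in tumor-like and 436 and 242 CPM in fibroblast-like cells, while the fatty acid sum of fibroblast-like cells is 231 and 201 CPM, a direction that turns under TMM scaling, with free RNA subtracted and without Scd1 and Scd2.

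Set side by side, the classes shared part of the pattern. Of the 28 genes, 13 had at least 50 UMIs in all 5 classes, and 5 of these were lower past the fold in all 5: Hmgcs1, Cyp51, Msmo1, Insig1 and Scd2. Insig1 did so narrowly: in macrophage-like cells its ratio of -0.60 falls short of the limit once the TMM shift of 0.04 is added, and in NK/T-like cells its interval spans 0. A ratio below 0 in all 5 was found for 8 of the 13. Of 5892 features with 50 UMIs or more in each class, 0.9% were lower past the fold in all 5 and 24.2% were below 0 in all 5. Scaled by total UMIs, no gene was higher past the fold in any of the 5 classes, whereas under TMM 2 were in fibroblast-like cells. Class by class and by total UMIs, 9.86% to 17.9% of all tested features were higher and 11.9% to 30.2% lower. The shares of all features higher in any class, lower in none, or higher under TMM were not computed. By total UMIs, 9 were lower past the fold in none of the classes where they had 50 UMIs or more. These were Acaca and Fasn, tested in 5 classes, Fdft1 and Elovl6, tested in 4, Acat2 and Mvk, tested in 3, and Lss, Tm7sf2 and Dhcr7, tested in 2. The map of log2 ratios by class shows Cyp51 at -1.34 in tumor-like, -2.09 in macrophage-like, -2.53 in Ly6c2-type monocyte-like, -2.41 in NK/T-like and -1.25 in fibroblast-like cells, and Fasn at 0.13, 0.00, -0.37, -0.13 and 0.00. The classes come from the same 2 libraries and share their free RNA, so they are not separate replicates. Neutrophil-like cells had 15 and 955 cholesterol enzyme UMIs and dendritic-like cells numbered 16 in the MSA-2 library, too few for a comparison. By position, the 28 genes lay on 15 chromosomes, and 4 overlapped another protein-coding gene.

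**Figure D5:**
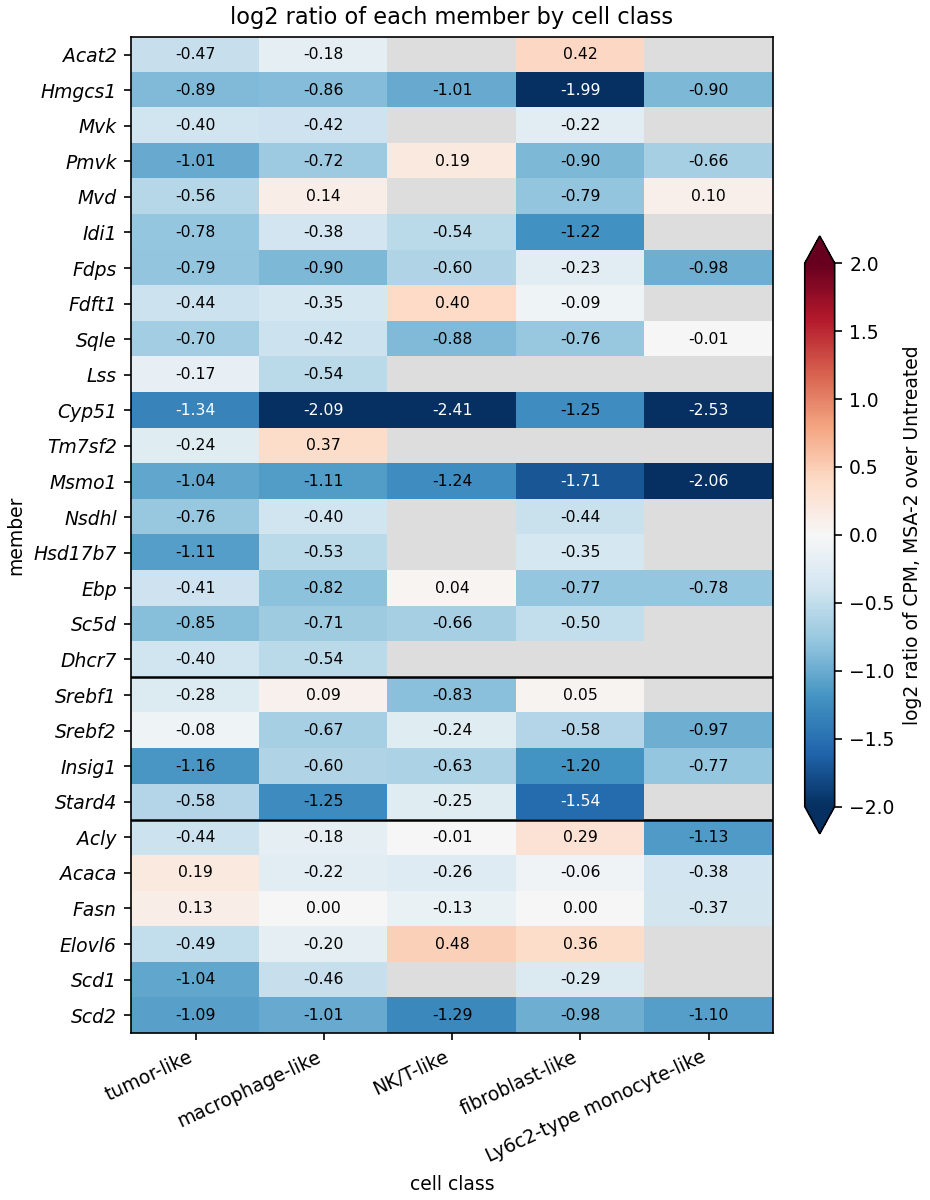
Log2 ratio of CPM, MSA-2 over Untreated, for each of the 28 genes (rows) in 5 cell classes (columns), with colours from -2 to 2 and grey for genes under 50 UMIs. Hmgcs1, Cyp51, Msmo1, Insig1 and Scd2 are past -0.58 in all 5 classes, Insig1 in macrophage-like cells at -0.60 and short of the limit under TMM.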

How the data were processed

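The deposited matrices hold raw UMI counts per gene and barcode, which the authors made from 3′ single-cell libraries. The file headers name Cell Ranger 7.0.1 and the submitters' notes Cell Ranger 7.0.0 and Seurat 4.3.0 on mm10, and the methods a further version. The members and lists were chosen with earlier results of these data known. Barcodes under 500 genes (253 and 591), over 20% mitochondrial UMIs (141 and 84) or called doublets by Scrublet (732 and 579) were left out. Cells were gated on marker lists (score 0.25, lead 0.1, 3 markers) and clustered by Leiden (2000 genes, 30 components, 15 neighbours, resolution 1) with scanpy 1.11.5. UMIs were summed per class and compared as CPM with exact conditional binomial intervals (Clopper-Pearson for shares, Poisson for CPM). No test was run, since each group has 1 library. All 28 members are named, with full values over all cells, and in each class those past 0.58 with 50 UMIs and the 3 with the most UMIs. In other lists, Abca1, Abcg1, Ch25h, Mylip and genes past the fold in tumor-like or macrophage-like cells may be named, and not every gene the rule allows is given. Alternatives varied filters, gates, scaling (edgeR 4.0.16 TMM), thinning, the sums and the limits. Python 3.11.15, numpy 2.4.6, scipy 1.17.1, pandas 2.3.3, igraph 0.11.9, matplotlib 3.10.9 and R 4.3.3 were used, and the code was checked on simulated data.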

Additional observations from a re-analysis of the deposited data

How the results depend on the processing

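Of 60 alternative values of the cholesterol sums, 60 were below 0 (-0.97 to -0.32) and 46 lay within the counting interval of the reported value. Of 65 for the fatty acid sums, 62 were below 0 (-0.59 to 0.11) and 46 lay within it. They covered all cells and the tumor-like, macrophage-like, NK/T-like and fibroblast-like classes. None was run for the sums of Ly6c2-type monocyte-like cells. Of 34 alternative counts of genes past the fold, 26 were within 1.5 times the reported count. Values that moved are given next, and the cause was not tested. Alternatives for free RNA, shared barcodes, TMM counts, the sum without Scd1 and Scd2, and clusters led by other markers were chosen after seeing the data.

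For the cholesterol sums, a stricter cell filter gave -0.77 over all cells. TMM scaling gave -0.81 over all cells, -0.90 in tumor-like and -0.59 in fibroblast-like cells. A mean over cells gave -0.81 over all cells and -0.97 in fibroblast-like cells. Thinning gave -0.76 over all cells and -0.69 in macrophage-like cells. Leaving out Fdps gave -0.81 over all cells and -0.85 in tumor-like cells. Leaving out clusters led by other markers gave -0.68 in macrophage-like cells. Subtracting free RNA gave -0.89 in macrophage-like and -0.60 in fibroblast-like cells. Classes taken from clusters gave -0.64 in fibroblast-like cells.

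For the fatty acid sums, a stricter filter gave -0.27 over all cells. TMM gave -0.32 over all cells and -0.44 in tumor-like cells, and reversed fibroblast-like cells to 0.05. A mean over cells gave -0.34 over all cells and -0.34 in tumor-like cells. Thinning gave -0.26, -0.29 and -0.41 in all, tumor-like and fibroblast-like cells. Without Fasn the ratio was -0.49 over all cells and -0.56 in tumor-like cells, and without Acly -0.35 in fibroblast-like cells. Without Scd1 and Scd2 it was -0.03 over all cells, -0.08 in tumor-like, -0.15 in macrophage-like and, reversed, 0.11 in fibroblast-like cells, and in NK/T-like cells -0.04, inside the wide counting interval there. Subtracting free RNA gave -0.49 in macrophage-like and, reversed, 0.06 in fibroblast-like cells. Classes taken from clusters gave -0.59 in NK/T-like cells.

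With a limit of log2 1, the counts past the fold were 5 over all cells, 7 in tumor-like, 4 in macrophage-like, 4 in NK/T-like and 6 in fibroblast-like cells, none higher. With 10 CPM added they were 9 over all cells, 6 in macrophage-like and 4 in NK/T-like cells, none higher. The shares of all features past these altered limits were not computed, so the counts have no background beside them.

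No paired analysis was possible because both groups carry replicate number 1, which pairs nothing with 1 library each, and no value here comes from a test. Depth limited the smaller classes: 9 of the 28 genes in NK/T-like and 14 in Ly6c2-type monocyte-like cells had under 50 UMIs. Treatment, library, pooled animals and cluster membership cannot be told apart. Cells were counted from dissociated tumors, and which strand or overlap rule was used in counting is not given in the sources used here.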

Other observations

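Endothelial-like cells (63 Untreated and 80 MSA-2) were in no comparison of the report. Their cholesterol enzymes summed to 471 and 331 CPM (289 and 320 UMIs, log2 ratio -0.51, interval -0.74 to -0.27) and their fatty acid enzymes to 189 and 185 CPM (116 and 179 UMIs, log2 ratio -0.03, interval -0.38 to 0.32). Gng11 in these cells stood at 107% and 70.3% of its tumor-like level, so it was not used as a measure of free RNA there. The fatty acid sum joined genes that went both ways: Fasn rose from 26.1 to 45.5 CPM (16 and 44 UMIs, log2 ratio 0.80, interval -0.05 to 1.73) and Scd2 fell from 66.9 to 43.5 CPM (41 and 42 UMIs, log2 ratio -0.62, interval -1.28 to 0.04), both on few UMIs with intervals that span 0. With 8 of the 28 genes at 50 UMIs or more here, Hmgcs1 fell from 52.2 to 27.9 CPM (32 and 27 UMIs, log2 ratio -0.90, interval -1.70 to -0.12) and Ebp from 52.2 to 34.2 CPM (32 and 33 UMIs, log2 ratio -0.61, interval -1.36 to 0.14).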
